A study of Mus musculus with 6 samples.

Results

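The carbonic anhydrases of the heart were examined in 10 genes, Car2, Car3, Car4, Car5b, Car7, Car8, Car9, Car11, Car13 and Car14, out of 54532 genes counted by RNA-seq and out of 16 carbonic anhydrase genes in the same table. The 10 genes were chosen by name, with the counts and the genotype comparison of these same hearts already known, the difference of Car4 in particular. Their levels and differences are therefore given as a description, without p-values. Calls among the 10 are counted beside the share over all genes and support nothing, and p-values are given only for other genes. Whole hearts came from male mice aged 3 months on a C57BL/6 background, 3 per genotype. The α1s/sα2s/s mice (sensitive, mice 379, 380 and 381, here sensitive 1, 2 and 3) carried, in every tissue, a substituted Na/K-ATPase α1 that binds cardiotonic steroids with high affinity. Their controls, the α1r/rα2s/s mice (resistant, mice 368, 369 and 370, here resistant 1, 2 and 3), kept the natural, resistant α1. The study describes its controls as littermates in general and as age-matched for the RNA-seq. Both genotypes carried the sensitive α2, so the comparison asked what differed with the affinity of α1. Each library was 1 mouse.

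Carbonic anhydrases interconvert carbon dioxide and water with bicarbonate and a proton. In the working heart this reaction moves carbon dioxide out of the myocyte, buffers the protons of glycolysis and supplies bicarbonate to the exchangers and cotransporters that set intracellular pH. The enzymes are sorted by place. Car2, Car3, Car7 and Car13 are cytosolic, Car5b is imported into the mitochondrial matrix, and Car4, Car9 and Car14 are held in the membrane with the catalytic domain outside the cell. Car8 and Car11 are carbonic anhydrase-related proteins, which keep the fold and have lost the reaction.

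The catalytic zinc is held by 3 histidines, and the stretch around the first 2 of them is shown because it separates the enzymes of the family from the related protein Car11. Each line gives 11 codons of 1 exon, 5′ to 3′ on the coding strand, from GENCODE M21 transcripts on GRCm38, and the capitals mark the codons at the first and second zinc positions.
Car2, exon 3, chr3:14895060-14895092, plus strand: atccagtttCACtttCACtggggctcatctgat
Car3, exon 3, chr3:14866841-14866873, plus strand: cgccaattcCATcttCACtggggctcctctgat
Car7, exon 3, chr8:104547725-104547757, plus strand: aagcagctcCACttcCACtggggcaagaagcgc
Car13, exon 3, chr3:14650697-14650729, plus strand: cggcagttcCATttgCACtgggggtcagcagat
Car5b, exon 4, chrX:163991399-163991431, minus strand: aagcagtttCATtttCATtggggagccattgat
Car4, exon 4, chr11:84964158-84964190, plus strand: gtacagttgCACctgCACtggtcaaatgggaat
Car9, exon 4, chr4:43508955-43508987, plus strand: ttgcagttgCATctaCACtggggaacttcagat
Car14, exon 4, chr3:95900294-95900326, minus strand: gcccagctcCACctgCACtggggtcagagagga
Car11, exon 4, chr7:45702539-45702571, plus strand: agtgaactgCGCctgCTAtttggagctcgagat

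Counted over all 3 zinc positions, 8 of the 10 genes encode 3 histidines. Car11 encodes 0. The cytosolic and mitochondrial proteins were the closest to Car2 when translated and aligned, with 56.9% identity for Car3, 56.9% for Car13, 55.0% for Car7 and 51.5% for Car5b. The membrane-bound proteins were more distant, at 38.4% for Car9, 37.2% for Car14 and 33.3% for Car4. Car4 is thus as far from Car2 in sequence as the related protein Car11, also at 33.3%, and unlike Car11 it keeps the zinc site.

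The libraries held 19309312 to 20470065 counts, with a count in 21234 to 22515 genes. Mitochondrial genes took 23.4% to 24.4% of the counts in resistant hearts and 25.0% to 26.0% in sensitive hearts. All 10 cardiomyocyte markers were detected in every heart of this tissue labelled as heart. Their summed level was 58887 to 72624 CPM in resistant hearts and 65145 to 70981 CPM in sensitive hearts, where CPM is the count scaled to a common library size with TMM factors. Sensitive 2 stood apart in red cell genes, whose summed level was 3220 CPM there and 429 to 1306 CPM in the other hearts. Resistant 2 stood apart in atrial and macrophage genes: 6 of 6 atrial markers were highest there (sum 282 CPM, against 161 to 215 CPM in the other hearts), as were 9 of 10 macrophage markers (412 against 220 to 308 CPM). It was also the highest heart for 7 of 10 general endothelial markers (981 against 815 to 947 CPM). The same held for 6 of 10 fibroblast markers, whose sum was highest in sensitive 1.

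Levels within the family spanned a wide range, and 2 membrane-bound genes led it over the 6 hearts. Compared per kilobase of gene length (CPM per kb, mean ± SD over the 6 hearts), Car14 was at 29.1 ± 2.81, Car4 at 12.3 ± 4.46 and the related protein Car8 at 8.09 ± 1.78. Car2 followed at 1.98 ± 0.204, Car7 at 1.58 ± 0.459, Car11 at 1.43 ± 0.247 and Car3 at 1.35 ± 0.834. The lowest were Car13 at 0.366 ± 0.110, Car9 at 0.263 ± 0.162 and Car5b at 0.235 ± 0.0578. Only 3 steps of this order were wider than the spread of the hearts: the lowest Car14 value, 26.0, lay above the highest Car4 value, 17.0, the lowest Car8 value, 6.14, lay above the highest Car2 value, 2.21, and the lowest Car3 value, 0.717, lay above the highest Car13 value, 0.561. All other neighbours in the order overlapped. The order pools the genotypes: in resistant hearts Car8, at 9.09 ± 1.98 (SD, n = 3), had a higher mean than Car4, at 8.23 ± 0.503, and in sensitive hearts the lowest mean was that of Car9, at 0.163 ± 0.0789.

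**Figure D1:**
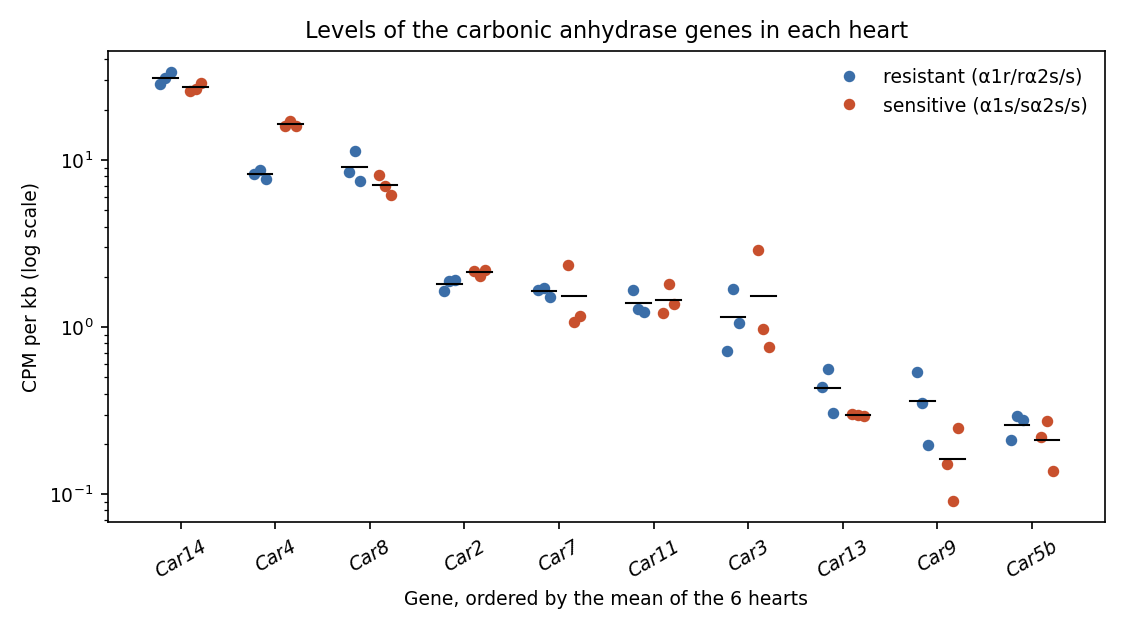
Level of each carbonic anhydrase gene in CPM per kb of gene length (log axis) in the 3 resistant hearts (blue) and the 3 sensitive hearts (orange), 1 point per heart, with a bar at the mean of each genotype. Genes are ordered by the mean of the 6 hearts, and the 3 sensitive Car4 points lie above the 3 resistant ones while most other genes overlap.

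Between genotypes, 1 of the 10 genes, Car4, was called different in the fit over the whole table (edgeR quasi-likelihood test, adjusted p under 0.05), beside 214 of all 14866 genes tested, or 1.44%. Log2 fold changes of sensitive over resistant hearts were above 0 for 4 genes and below 0 for 6, with a median of −0.14 beside −0.01 over all genes tested. The CPM of the genotypes did not overlap for 3 genes, higher in sensitive hearts for Car4 and Car2 and lower for Car13, whereas 20% of all genes tested had no overlap. Since Car4 was known to differ when the family was chosen, nothing is read from these counts.

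**Figure D2:**
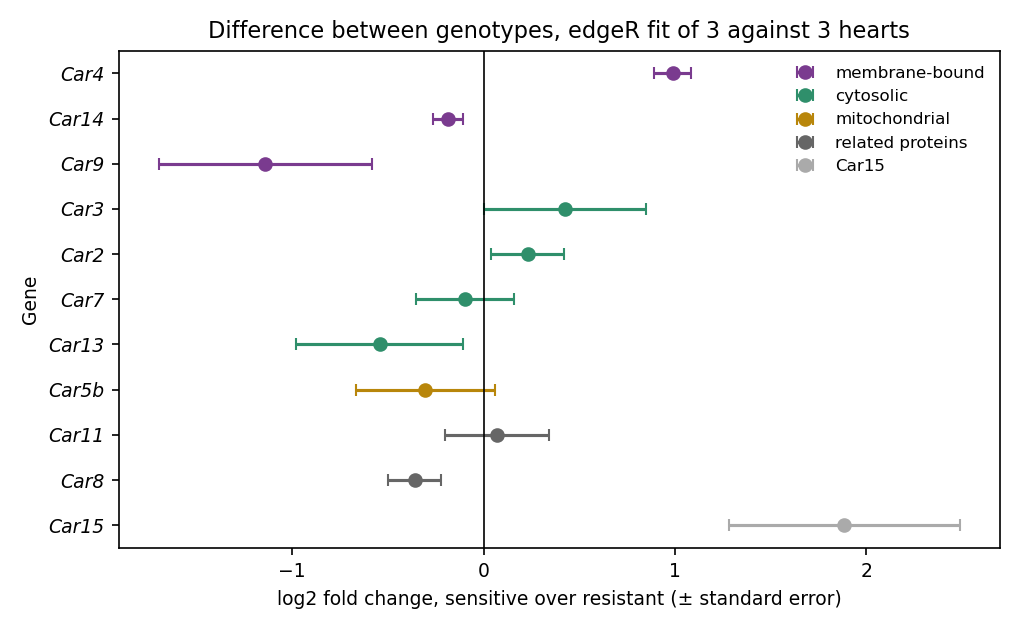
Log2 fold change of sensitive over resistant hearts with its standard error, from the edgeR fit of 3 against 3 hearts, for the 10 genes and for Car15, coloured by class. Car4 lies at 0.99 with a short error bar, while the bars of low-count genes such as Car9, at −1.14, are several times longer.

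The membrane-bound enzymes held both the most abundant gene and the gene with the clearest difference. Car4 (chr11:84957786-84966044, plus strand), which is tethered by a lipid anchor to the outer face of capillary endothelium in the heart and lung, had 338, 360 and 303 counts in resistant hearts and 635, 636 and 604 counts in sensitive hearts. As CPM this was 16.1, 17.2 and 15.2 in resistant hearts and 31.5, 33.5 and 31.3 in sensitive hearts. Every sensitive heart was above every resistant heart, and hearts of 1 genotype lay close together. Car4 was 1.98-fold higher in sensitive hearts (16.2 ± 0.988 against 32.1 ± 1.18 CPM, SD, n = 3), with a log2 fold change of 0.99 ± 0.09 SE. The biological coefficient of variation, the model's variation among hearts of 1 genotype, was 11.1% in common over genes of every level. That of Car4 was 8.14%, and the common value is no yardstick for genes of its level. Its difference stayed between 0.95 and 1.04 on the log2 scale in the 13 other settings run, leaving out each heart in turn included, on the same counts for which Car4 was chosen.

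Car14 (chr3:95897768-95904691, minus strand), a transmembrane enzyme of the heart muscle cell, was the most abundant of the family. It stood at 72.2, 78.6 and 85.4 CPM in resistant hearts and at 66.2, 67.5 and 73.8 CPM in sensitive hearts. The groups overlapped through resistant 1 and sensitive 3, and the log2 fold change was −0.19 ± 0.08 SE, between −0.24 and −0.12 in the other settings. Of the 10 cardiomyocyte markers, 5 were highest in resistant 3, the heart with the most Car14, and 5 in sensitive 3. None of the 10 was called by edgeR, and 0 had an unadjusted p under 0.05. The 3′ end of Car14 shares 521 bases with Aph1a on the opposite strand, and the strand setting of the counting is not given in the sources used here. Aph1a itself was not called (log2 fold change 0.02, edgeR adjusted p = 0.925).

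Car9 (chr4:43506966-43513729, plus strand), the transmembrane enzyme known as a target of the hypoxia response in tumours, was close to the limit of detection. It had 26, 17 and 9 counts in resistant hearts and 7, 4 and 11 counts in sensitive hearts, or 1.24, 0.812 and 0.452 CPM against 0.348, 0.210 and 0.571 CPM. Resistant 3 and sensitive 3 overlapped, and the resistant hearts were spread widely. Its log2 fold change of −1.14 ± 0.56 SE carried the largest standard error of the 10 genes, lay between −1.56 and −0.74 in the other settings and had a biological coefficient of variation of 33.7%. An antisense gene, Gm12454, shares 1782 bases with Car9 and had 2, 1 and 1 counts in resistant hearts and 14, 7 and 4 in sensitive hearts, so reads from the opposite strands of this locus may not have been told apart.

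Within each heart, where library scaling has no part, Car4 took a larger share of the membrane-bound class in sensitive hearts. Of the summed CPM per kb of Car4, Car9 and Car14, Car4 made up 22.1%, 21.9% and 18.7% in resistant hearts and 38.0%, 39.0% and 35.2% in sensitive hearts. Car14 made up 76.5%, 77.3% and 80.9% in resistant hearts and 61.7%, 60.8% and 64.2% in sensitive hearts. The ratio of Car14 to Car4 was accordingly 3.78 ± 0.485 in resistant and 1.67 ± 0.136 in sensitive hearts (SD, n = 3). Car4 and Car8 were near parity in resistant hearts, with ratios per kb of 0.963, 0.774 and 1.04, and Car4 exceeded Car8 in each sensitive heart, with ratios of 1.98, 2.42 and 2.60. These shares and ratios use the same counts for which Car4 was chosen, so nothing is read from them.

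**Figure D3:**
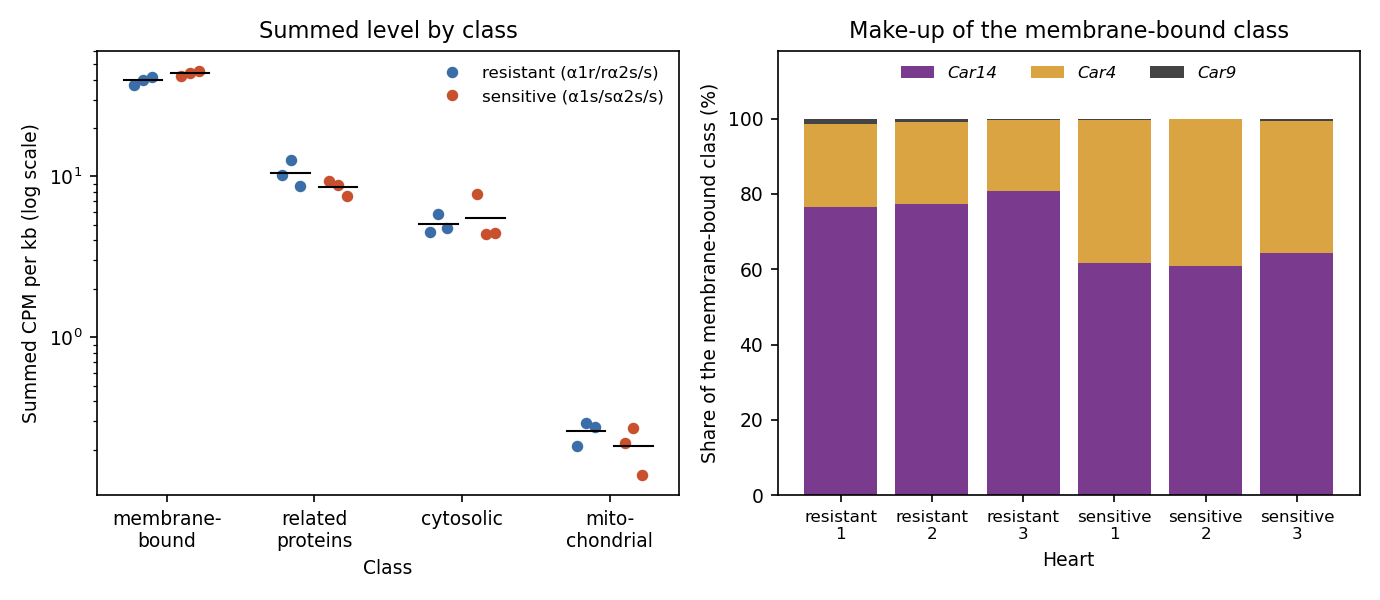
Left, summed CPM per kb of each class (log axis) in each heart, blue for resistant and orange for sensitive, with a bar at the mean of each genotype. Right, share in percent of Car14, Car4 and Car9 in the membrane-bound class of each heart, where the Car4 share is 18.7% to 22.1% in resistant hearts and 35.2% to 39.0% in sensitive hearts. The shares use the same counts for which Car4 was chosen.

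The cytosolic enzymes were well below Car14 and Car4 in level and showed no shared direction. Car2 (chr3:14886273-14900770, plus strand), the fast enzyme of red cells, kidney and many other tissues, was at 4.01, 4.59 and 4.62 CPM in resistant hearts and at 5.26, 4.89 and 5.34 CPM in sensitive hearts. On the TMM scale all sensitive hearts were above all resistant hearts by a small margin, with a log2 fold change of 0.23 ± 0.19 SE. The counts were 84, 96 and 92 in resistant hearts and 106, 93 and 103 in sensitive hearts. Over plain library totals, resistant 2 lay above sensitive 2, so the separation of Car2 depended on the scaling. Sensitive 2, where the red cell genes were highest, had the lowest Car2 of the sensitive group, and Car1, the other major enzyme of red cells, had 0 counts in every heart. The part of red cells in the Car2 values was not tested.

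Car3 (chr3:14863512-14872523, plus strand), a slow enzyme abundant in fat and in slow skeletal muscle, varied most between hearts of 1 genotype. It was at 2.05, 4.82 and 3.01 CPM in resistant hearts and at 8.29, 2.79 and 2.18 CPM in sensitive hearts. A single heart, sensitive 1, lay far above the others, and the groups overlapped. With all hearts the log2 fold change was 0.43 ± 0.42 SE, and without sensitive 1 it was −0.41. Of the 10 adipocyte markers, 7 were also highest in sensitive 1, whereas Plin4 was highest in sensitive 3 and Lep in resistant 3. Ucp1 was at 0 in all hearts. The summed list was 203 to 220 CPM in resistant hearts and 280, 256 and 306 CPM in sensitive hearts, highest in sensitive 3. Among these markers, Cfd, named here after its values were seen, was at 2.63, 3.58 and 2.31 CPM in resistant hearts and at 7.89, 1.84 and 1.92 CPM in sensitive hearts. The part of fat tissue in the Car3 values was not tested.

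Car7 (chr8:104534689-104550343, plus strand), best known from neurons, was at 6.11, 6.26 and 5.53 CPM in resistant hearts and at 8.54, 3.89 and 4.25 CPM in sensitive hearts. The resistant hearts were alike, whereas sensitive 1 was above and the other sensitive hearts were below all of them. Car7 had a log2 fold change of −0.10 ± 0.26 SE, which was −0.55 without sensitive 1 and turned to 0.11 without sensitive 2 and 0.06 without sensitive 3. Car13 (chr3:14641727-14663002, plus strand), a widely expressed cytosolic enzyme, had 21, 27 and 14 counts in resistant hearts and 14, 13 and 13 in sensitive hearts. This was 0.999 ± 0.293 CPM in resistant and 0.684 ± 0.0104 CPM in sensitive hearts (SD, n = 3). The absence of overlap rested on resistant 3 at 0.703 CPM and sensitive 1 at 0.695 CPM, hearts with the same count of 14, and the log2 fold change was −0.54 ± 0.44 SE, between −0.73 and −0.31 in the other settings. Car13, Car3 and Car2 lie beside each other on chromosome 3 with Car1, and these neighbours ran from 0 counts for Car1 to 574 counts over the 6 hearts for Car2.

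The mitochondrial enzyme Car5b (chrX:163976822-164027997, minus strand), which is known to supply bicarbonate to the carboxylases of the matrix, had the lowest mean of the 10 per kb over the 6 hearts. It had 28, 39 and 35 counts in resistant hearts and 28, 33 and 17 in sensitive hearts, or 1.34, 1.86 and 1.76 CPM against 1.39, 1.74 and 0.882 CPM. The groups overlapped fully apart from sensitive 3, the lowest heart. Car5b had a log2 fold change of −0.31 ± 0.36 SE, which was −0.08 without sensitive 3 and −0.53 without sensitive 2. The other mitochondrial gene of the family, Car5a, an enzyme of liver, had 0 counts in all hearts.

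The related proteins were led by Car8, which binds the inositol trisphosphate receptor and lowers its affinity for the ligand. Car8 (chr4:8143362-8239041, minus strand) was at 32.8, 43.5 and 28.7 CPM in resistant hearts and at 31.2, 27.0 and 23.7 CPM in sensitive hearts. Resistant 2 was the highest, and the groups overlapped because resistant 3 was below sensitive 1. For Car8 the log2 fold change was −0.36 ± 0.14 SE, and between −0.48 and −0.17 in the other settings, the smallest being that without resistant 2, the heart with the most atrial and macrophage RNA. The part of these cells in the Car8 values was not tested. Car11 (chr7:45699843-45704682, plus strand), a secreted protein best known from brain, was at 3.20, 2.48 and 2.36 CPM in resistant hearts and at 2.33, 3.47 and 2.65 CPM in sensitive hearts. These ranges nearly coincided, with a log2 fold change of 0.07 ± 0.27 SE that turned to −0.10 without sensitive 2 and −0.01 without resistant 3.

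Summed by class, the differences were small against that of Car4. The membrane-bound class totalled 37.2, 40.0 and 41.5 CPM per kb in resistant hearts and 42.2, 43.6 and 45.2 in sensitive hearts. The groups did not overlap on the TMM scale. The log2 ratio of the means was 0.14, or 0.06 with plain library totals in place of the TMM scaling. With plain totals, resistant 2 lay above sensitive 1, so the separation of this class depended on the scaling. The cytosolic class totalled 4.49, 5.86 and 4.79 CPM per kb in resistant hearts against 7.72, 4.36 and 4.43 in sensitive hearts, where only sensitive 1, the heart with high Car3 and Car7, stood out. The mitochondrial class is Car5b alone, given above. The related proteins totalled 10.2, 12.6 and 8.68 CPM per kb against 9.32, 8.82 and 7.51. Over all 10 genes the sum was 55.3 ± 3.35 in resistant and 58.0 ± 1.33 CPM per kb in sensitive hearts (SD, n = 3), with overlap, of which the membrane-bound class held 71.5% ± 3.51 and 75.4% ± 4.05.

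Of the 6 other carbonic anhydrases in the table, Car15 alone had enough counts to be tested. Car15 (chr16:17835276-17838364, minus strand), a lipid-anchored enzyme like Car4, had 6, 1 and 5 counts in resistant hearts and 15, 13 and 15 in sensitive hearts. It entered the test only through the sensitive hearts, all of which were higher. The log2 fold change of 1.89 ± 0.60 SE did not pass the threshold over all genes (edgeR adjusted p = 0.152), and its adjusted p ran from 0.147 to 0.447 in the other settings. The gene Gm20518, on the same strand, spans Car15 and had 3, 5 and 1 counts in resistant hearts and 5, 6 and 0 in sensitive hearts, so reads could have been split between them. Car1, Car5a and the membrane-bound Car12 had 0 counts in all hearts, which allows up to 3 counts or 0.143 to 0.158 CPM per heart, a limit for counting error only. The secreted Car6 had 1 count and the related protein Car10 had 4 counts over the 6 hearts.

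Genes that work with the family showed no call at the threshold. The 5 lists held 58 genes, of which 45 were tested with 0 called by edgeR, beside 1.44% of all genes tested. Of the 45 genes, 14 had an unadjusted p under 0.05. This was a larger share than over all genes tested, where it was 14.5% (2150 of 14866). The lists were chosen with earlier results of these data known, so nothing is read from that share. DESeq2 called 2 genes of these lists, Acacb and Bnip3, the latter named after its values were seen. For bicarbonate and acid transport, 11 of 19 genes were tested and 3 had an unadjusted p under 0.05. The smallest p in this list was that of Slc4a4, the sodium bicarbonate cotransporter, at 44.1, 42.3 and 47.1 CPM in resistant hearts and 29.8, 35.2 and 39.6 CPM in sensitive hearts. All sensitive hearts were below the resistant ones (log2 fold change −0.35 ± 0.10 SE, edgeR adjusted p = 0.108). For lactate transport, 6 of 6 genes were tested and 2 had an unadjusted p under 0.05, with the smallest for the monocarboxylate transporter Slc16a7 (log2 fold change −0.50 ± 0.16 SE, edgeR adjusted p = 0.160).

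For the carboxylases that use bicarbonate, 7 of 8 genes were tested and 1 had an unadjusted p under 0.05. This was Acacb, acetyl-CoA carboxylase 2 of the outer mitochondrial membrane, at 371, 359 and 390 CPM in resistant hearts and 447, 425 and 442 CPM in sensitive hearts. All sensitive hearts were above the resistant ones (log2 fold change 0.23 ± 0.07 SE, edgeR adjusted p = 0.118). Its adjusted p was 0.00619 with DESeq2 and up to 0.316 in the other settings. For water and gas channels, 3 of 7 genes were tested and 2 had an unadjusted p under 0.05, with the smallest for the aquaglyceroporin Aqp7 (log2 fold change 0.32 ± 0.15 SE, edgeR adjusted p = 0.331). For the hypoxia response, to which Car9 belongs, 18 of 18 genes were tested and 6 had an unadjusted p under 0.05. The log2 fold change was above 0 for 12 genes and below 0 for 6, beside 51.6% below 0 over all genes tested. The smallest p was that of the glucose transporter Slc2a1, at 10.7, 7.17 and 11.4 CPM in resistant hearts and 16.1, 14.4 and 13.3 CPM in sensitive hearts (log2 fold change 0.58 ± 0.16 SE, edgeR adjusted p = 0.103). The genes with an unadjusted p under 0.05 went both ways. Slc2a1, Egln2 and Bnip3 were higher in sensitive hearts, while Egln3, Adm and Hk2 were lower, all but Slc2a1 named after their values were seen.

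Since Car4 marks capillary endothelium, the marker lists of the cell types of the heart were set beside it. In whole hearts, a change in the number of cells of a type and a change in RNA per cell cannot be told apart. None of the 10 general endothelial markers was called by edgeR, 1 had an unadjusted p under 0.05, and their sum was 849 to 981 CPM in resistant and 815 to 947 CPM in sensitive hearts. Per 1000 counts of this list, Car4 had 17.4, 17.5 and 17.9 counts in resistant hearts and 33.3, 35.9 and 38.4 in sensitive hearts. This ratio uses the same counts for which Car4 was chosen, over a list that differed little, so nothing is read from it. The capillary list differed more: its sum was 3086 to 3448 CPM in resistant and 3707 to 3787 CPM in sensitive hearts. Cd36 made up the greater part of this sum. The mean sum was 3297 CPM in resistant and 3755 CPM in sensitive hearts. The mean of Cd36 was 325 CPM higher in sensitive hearts and that of Fabp4 117 CPM higher, while 3 genes of the list were lower. Of the 10 genes of the capillary list, 2 were called, both higher, beside 1.44% of all genes tested. In this list 7 genes had an unadjusted p under 0.05, beside 14.5% of all genes tested. The log2 fold change was above 0 for 7 genes of the list and below 0 for 3. The called genes were Fabp4, a fatty acid-binding protein (log2 fold change 0.39 ± 0.09 SE, edgeR adjusted p = 0.0358), and Timp4, an inhibitor of metalloproteinases (1.15 ± 0.16 SE, adjusted p = 0.00274). Cd36, the fatty acid translocase, was at 2154, 2070 and 1966 CPM in resistant hearts and at 2362, 2347 and 2456 CPM in sensitive hearts (log2 fold change 0.21 ± 0.07 SE, adjusted p = 0.164). Kdr, a receptor for vascular endothelial growth factor, named after its values were seen, went the other way, at 297, 304 and 252 CPM in resistant hearts and 234, 218 and 149 CPM in sensitive hearts (log2 fold change −0.50 ± 0.13 SE, adjusted p = 0.0694). The part of capillary content in the Car4 values was not tested.

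**Figure D4:**
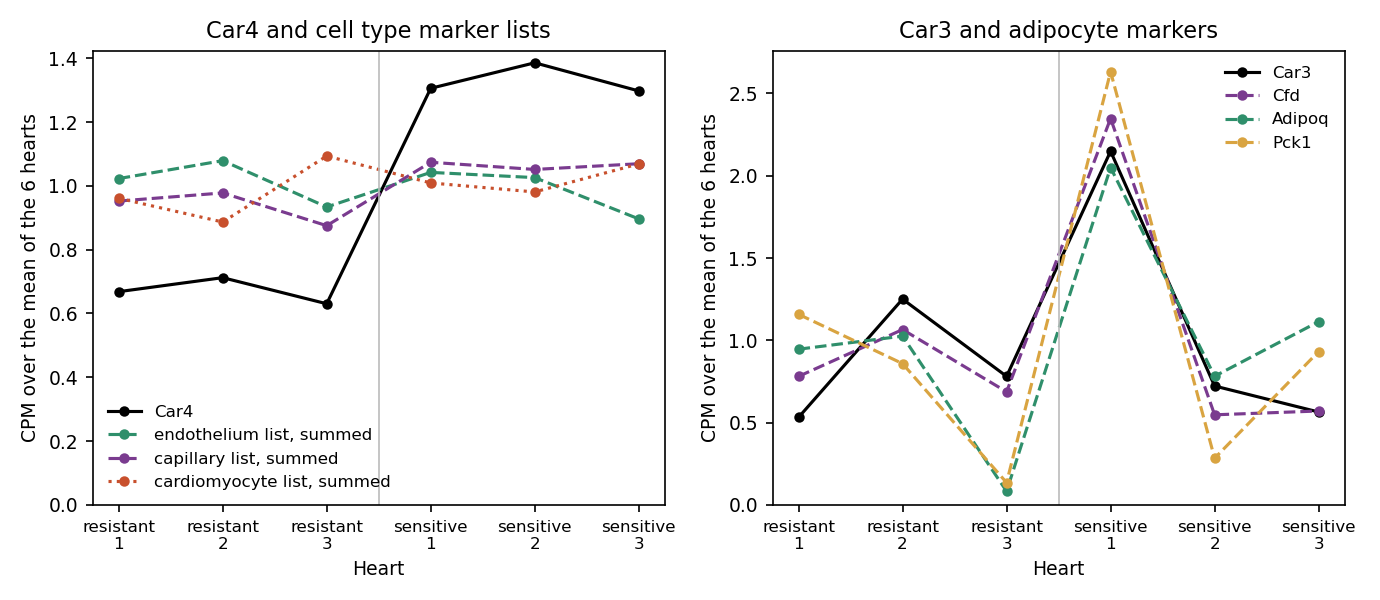
Left, CPM of Car4 and summed CPM of the endothelium, capillary and cardiomyocyte lists, each divided by its mean over the 6 hearts. Right, the same ratio for Car3 and the adipocyte markers Cfd, Adipoq and Pck1; the lines link the points of 1 gene or list and imply no order of hearts. Car4 separates the genotypes while the endothelium and cardiomyocyte lists overlap, and Car3, Cfd, Adipoq and Pck1 are all highest in sensitive 1. The adipocyte markers drawn were taken from the 7 that were highest in sensitive 1. Plin4 and Lep, not drawn, were highest in sensitive 3 and resistant 3, and the summed adipocyte list was highest in sensitive 3.

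Across all 10 marker lists, 85 of 96 entries were tested and 4 were called by edgeR, beside 1.44% of all genes tested. Beside Fabp4 and Timp4, these were Lipe, the hormone-sensitive lipase of the adipocyte list (log2 fold change 0.66 ± 0.10 SE, adjusted p = 0.00546), and Myot, a sarcomeric protein of the skeletal muscle list (0.46 ± 0.11 SE, adjusted p = 0.0460). Heart muscle expresses both as well. Fabp4 and Myot each lost the call in 5 of the 6 fits that left out 1 heart, Myot also with upper-quartile scaling (adjusted p = 0.0502), and Timp4 lost it with a robust prior (adjusted p = 0.102, from 1.65e-27 to 0.0128 in its other settings). Plin4, the most abundant adipocyte marker, was at 170 to 175 CPM in resistant and 199 to 246 CPM in sensitive hearts (adjusted p = 0.0602). The skeletal muscle list summed to 207 to 275 CPM in resistant and 306 to 377 CPM in sensitive hearts, nearly all of it Acta1 and Myot, with Myh4 and Tnnc2 at 0. The fibroblast, smooth muscle and pericyte, macrophage, atrial and red cell lists had 0 genes called by edgeR. At an unadjusted p under 0.05 they had 4, 5, 4, 3 and 0 genes, beside 14.5% of all genes tested. The log2 fold change was below 0 for 10 of 10 smooth muscle and pericyte markers (median −0.29), 10 of 10 macrophage markers (median −0.37) and 6 of 6 atrial markers (median −0.47), beside 51.6% of all genes tested. Resistant 2 alone was the highest heart for 6 of 6 atrial and 9 of 10 macrophage markers. The sums of the atrial and macrophage lists overlapped between genotypes. The part of the cell types of all these lists in the values of the carbonic anhydrases was not tested.

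The genes whose pattern over the 6 hearts was most like that of Car4 were Adh1, Tmem41a, Hand2, Tent5a and Gclm, in this order. Likeness was measured as the root mean square difference of log2 CPM, each gene centred on its own mean, among 12107 genes, whose median was 0.512. Adh1, an alcohol dehydrogenase that also oxidises retinol, differed from Car4 by 0.0696 and was at 6.73 to 7.64 CPM in resistant and 13.1 to 14.8 CPM in sensitive hearts. Tmem41a differed by 0.105, with 5.33 to 6.26 CPM against 10.9 to 12.6 CPM. Hand2, a transcription factor of heart development, differed by 0.161, with 28.6 to 35.5 CPM against 55.3 to 71.0 CPM. Tent5a, a poly(A) polymerase, differed by 0.164, and Gclm, the modifier subunit of the enzyme that starts glutathione synthesis, by 0.167. As they were picked for a pattern that includes the difference between genotypes, no test of that difference is given for them. Only genes averaging 1 or more on the log2 CPM scale were candidates. Car5b (0.64), Car13 (−0.13), Car9 (−0.67) and Car15 (−1.07) were below this floor and could not be listed. The members above it other than Car4 had log2 fold changes from −0.36 (Car8) to 0.43 (Car3), against 0.99 for Car4. None of them was among these 5 genes, and nothing is read from their absence.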

How the data were processed

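RNA-seq of 6 whole hearts was analysed from the deposited table of raw counts per gene, with gene names, coordinates and gene lengths as the authors gave them. The submitters' processing notes name fastp, STAR, featureCounts and the build mm10, with versions and strand setting not given in the sources used here. A second deposited table held the authors' DESeq2 results and was not used. Genotypes came from the sample labels. Of the 54532 genes counted, 14866 passed the filter on low counts and entered the fit. The filter was edgeR filterByExpr, with at least 10 counts in enough hearts and 15 in total. The main test was the quasi-likelihood test of edgeR 4.0.16 in R 4.3.3 with TMM scaling and Benjamini-Hochberg adjustment, called at an adjusted p under 0.05. It was tested on simulated data with known differences before use. Expression levels were CPM on TMM-scaled totals, divided by gene length only where genes were compared.

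The members and the gene lists were chosen with earlier results of these data known. Named genes were the 10 members, the other carbonic anhydrases, the called gene or else the gene with the smallest p in each related list, called markers, the 2 most abundant genes of 5 marker lists, and the 5 genes most like Car4. The mutated gene and 1 coding stretch are not reported here. Coding sequences came from GENCODE M21 transcripts on GRCm38, translated and aligned with Biopython 1.88. Alternatives were DESeq2 1.42.0, RLE and upper-quartile scaling, other filters, a robust prior, plain library totals for the class sums and each heart left out in turn. With 19309312 to 20470065 counts per heart, low genes such as Car9 rest on 4 to 26 counts per heart.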

Additional observations from a re-analysis of the deposited data

How the results depend on the processing

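Of 129 values of the members under an alternative, 127 moved by less than 1 SD between hearts, and the other 2 were Car3 and Car7 without sensitive 1, at −0.41 and −0.55. The sign turned in 1 setting for Car3, 2 for Car7 and 2 for Car11, each time with 1 heart left out. Members called numbered 1, Car4, which was chosen for its difference on these same counts, except that testing without a filter on low counts called 2, the second being Car8. The 214 genes called in all were 403 with DESeq2, 618 without a filter and 80 to 158 with 1 heart left out. Of the genes of related lists, 0 were called, 2 with DESeq2 and 7 without a filter. Of the markers, 4 were called, 11 with DESeq2, 26 without a filter and 2 to 8 with 1 heart left out. The log2 ratio of the membrane-bound class was 0.0614 with plain library totals, and that of all members was −0.0166 with plain totals and −0.00808 when not divided by length, against 0.0666. Among 24 other genes with 308 values, 3 reversed: Hbb-bs ran from −0.59 to 1.14, Hba-a1 from −0.55 to 1.11 and Myh6 from −0.0423 to 0.183 with 1 heart left out, the lowest for the red cell genes without sensitive 2. The rest were 278 on the same side of the threshold, 12 that lost it and 15 that gained it. The cause of these shifts was not tested. A minimum of 10 counts in every heart left no value for Car9 and Car15. Depth limits Car9, Car13 and Car5b, with under 1 CPM per kb. No paired analysis was possible because the sources used here give no litter or other pairing for these mice.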
